A study of Mus musculus with 20 samples.

Results

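The 91 genes described here encode the nuclear part of oxidative phosphorylation, the mitochondrial respiratory chain and ATP synthase. They were taken from the 30142 genes named on the array by symbol: Nduf, Uqcr, Atp5, Sdha to Sdhd, or Cox followed by 4 to 8, with pseudogenes left out and the row of highest mean kept for each gene. By prefix they fell into complex I (36 genes), complex I assembly factors of the Ndufaf series (7), complex II (4), complex III (8), complex IV (18) and complex V, the ATP synthase (18). The grouping follows names, so Ndufa4, now known as a complex IV subunit, counts with complex I, and Atp5sl, now Dmac2 and no subunit of the ATP synthase, counts with complex V.

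RNA came from bladders and metastases of FVB/N mice and was measured on 20 Affymetrix whole-transcript arrays, with values on the log2 scale. All mice, controls included, shared a genotype that includes Rbf/f, that is floxed Rb, and p107-/-, the loss of a relative of Rb. Control bladders (n = 5) were normal bladders. Bladder tumors (n = 7) arose after the bladder was inoculated with adenovirus carrying Cre, the recombinase that cuts out floxed sequence. Treated bladders (n = 3) came from mice given CM272, which inhibits both G9a, a histone methyltransferase, and the DNA methyltransferases, with cisplatin (CDDP). CM272 was injected daily for 30 days at 5 mg/kg, and cisplatin weekly at 6 mg/kg. The remaining samples were metastases not labelled as treated (n = 4) and 1 treated metastasis. The promoter driving Cre, the organs that held the metastases and the age of the mice were not used here. Nothing in the labels states that the samples of a group are separate animals, so p-values reflect only how far these samples differ among themselves, and that may be technical.

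The respiratory chain passes electrons from NADH, through complex I, and from succinate, through complex II, to ubiquinone, complex III, cytochrome c and complex IV, and the proton gradient built on the way drives the ATP synthase. Complexes I, III, IV and V combine nuclear subunits with a few encoded in mitochondrial DNA, while complex II is wholly nuclear. In the bladder, smooth muscle and urothelium both hold mitochondria, and tumors differ widely in how far they use respiration beside glycolysis.

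In 8 arrays the deviations from the mean of all arrays correlated with no other array above 0.14. Each of the other 12 reached a correlation of 0.33 to 0.61 with some other array. These 8, called near-mean arrays below, were control bladder 4, 5 and 6, bladder tumor 3, 4 and 5, and metastasis 3 and 4. The 8 were picked by these correlations, and the name refers to their flat marker means. Single markers could be flat in them too. Acta2, a smooth muscle marker, was at 7.45 to 8.14 in the 8 and at 5.94 to 12.16 in the other 12. Over all genes the median SD between arrays was 0.25 in the 8 and 0.26 in the other 12. Whatever the labelled tissue, the mean of 11 smooth muscle markers was 6.45 to 6.55 and that of 15 urothelial markers 6.38 to 6.49 in all 8, against 8.36 and 7.27 in control bladder 1 and 8.35 and 7.59 in control bladder 2. Among the control bladders, the raised muscle and urothelial markers of bladder wall were thus seen in 2 of 5. Each comparison is given with and without the 8. The number of arrays limits the precision.

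The nuclear respiratory genes are known targets of the transcription factor NRF1 and of ETS factors such as GABP, and 4 promoter windows are shown because they carry such a motif in genes whose values are described further on. RefSeq promoters (build GRCm38.p6) were found for 74 of the 91 genes and were searched on both strands over the 250 bases before the gene start. The NRF1 motif was GCGC, then any base, then TGCGC, and the ETS motif was ACTTCCGG; capitals mark the motif, and each sequence runs 5′ to 3′ on the gene's strand.
Ndufaf4: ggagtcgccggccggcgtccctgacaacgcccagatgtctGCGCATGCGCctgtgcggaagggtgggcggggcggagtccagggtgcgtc
Sdhd: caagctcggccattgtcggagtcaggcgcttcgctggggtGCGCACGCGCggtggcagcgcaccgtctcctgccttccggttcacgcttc
Cox6a1: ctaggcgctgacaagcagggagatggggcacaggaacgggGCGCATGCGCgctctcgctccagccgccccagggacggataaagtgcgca
Uqcrh: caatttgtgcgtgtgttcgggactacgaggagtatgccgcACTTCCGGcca

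The window of Ndufaf4 lies at chr4:24897930-24898019 on the plus strand, with the NRF1 motif starting 113 bases before the gene start. That of Sdhd lies at chr9:50603879-50603968 on the minus strand, with the motif starting 79 bases before the start. The Cox6a1 window, at chr5:115349071-115349160 on the minus strand, starts its motif 162 bases before the start, and the promoter holds 2 matches. In Uqcrh, at chr4:116075071-116075121 on the minus strand, the ETS motif starts 11 bases before the start. The NRF1 motif was present in 11 of the 74 promoters (14.86%) and in 4.23% of 27025 promoters. The ETS motif was in 3 of 74 (4.05%), against 3.23% of all, and the YY1 motif AAGATGGC in 2 of 74 (2.70%), against 1.83%. Among the genes of largest spread in a complex and the tissue isoforms described below, 11 had no NRF1 or ETS match. Ndufa1, Cox6b1, Atp5md and Cox7a2 were among them. A further 4 had no promoter entry. Atp5g2, whose row carries the code of another chromosome, had an NRF1 match that is not shown. These are matches of letters only, and a link between motif and values was not tested.

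The 91 genes varied more between arrays of one group than between groups. Their mean per array was 5.93 in bladder tumor 1 and 6.15 in bladder tumor 2, but 6.76 in bladder tumor 6 and 6.89 in bladder tumor 7, so the lowest and the highest of all arrays were both untreated bladder tumors. Bladder tumor 3, 4 and 5, which are near-mean, had 6.37, 6.45 and 6.34. Control bladder 1 and 2 both had 6.59, and the near-mean controls 4, 5 and 6 had 6.41, 6.40 and 6.46. Every control therefore fell inside the range of the tumors. Treated bladder 1 and 3 were low at 6.14 and 6.25, and treated bladder 2 was high at 6.69. Metastasis 1 reached 6.79 and metastasis 2 had 6.50, with 6.44 and 6.45 in the near-mean metastasis 3 and 4; the treated metastasis had 6.79. As group means, control bladder had 6.49 ± 0.10 (SD, n = 5), bladder tumor 6.42 ± 0.33 (SD, n = 7), treated bladder 6.36 ± 0.29 (SD, n = 3) and metastasis 6.55 ± 0.17 (SD, n = 4). The groups overlapped. In bulk tissue, fewer cells of a type and less RNA per cell cannot be told apart.

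Most genes of the set lay on the same side of their own mean in an array that was high or low. In bladder tumor 1, 78 of the 91 were below their mean over the 20 arrays, and in bladder tumor 2, treated bladder 1 and treated bladder 3 these were 73, 81 and 72. Above their mean were 71 of 91 in bladder tumor 6, 73 in bladder tumor 7, 74 in treated bladder 2, 76 in metastasis 1 and 75 in the treated metastasis. Over all 30142 genes, the share above their own mean ran from 37.7% in bladder tumor 6 to 59.9% in bladder tumor 1, the other way round than in the set. Among genes brighter than the median gene, however, the share was 39.0% in bladder tumor 1 and 53.9% in bladder tumor 6, on the same side as the set. In the arrays named above as low or high for the set, the median deviation from the genes' own means had the same sign in complexes I to V, below 0 in the low arrays and above 0 in the high ones. The median deviation in bladder tumor 1 was -0.53 for complex I, -0.25 for complex II, -0.54 for complex III, -0.40 for complex IV and -0.59 for complex V. The assembly factors were at 0.15 in that array, on the other side. In bladder tumor 7 the medians were 0.34 for complex I, 0.28 for complex II, 0.56 for complex III, 0.43 for complex IV, 0.37 for complex V and 0.06 for the assembly factors.

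**Figure D1:**
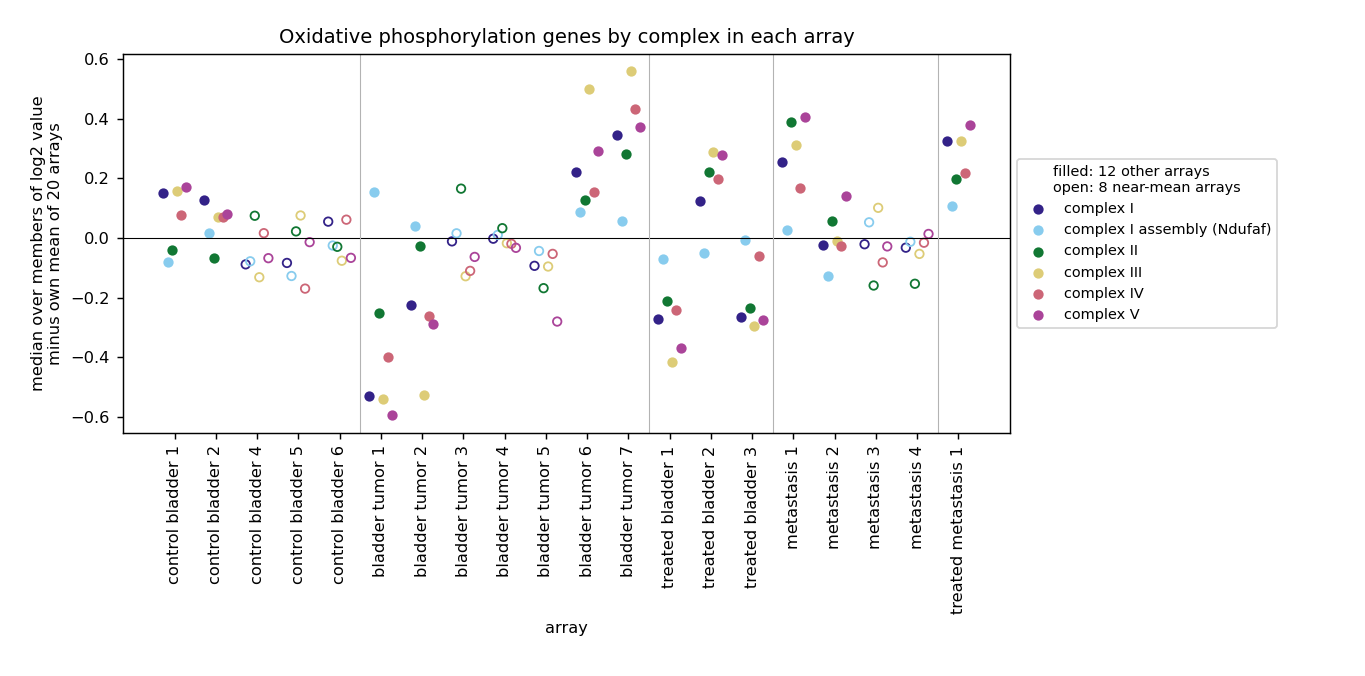
The plot of complexes by array gives, for each of the 20 arrays, the median over a complex's genes of the log2 value minus the gene's own mean of 20 arrays; open points mark the 8 near-mean arrays. Bladder tumor 1 lies lowest, with complex V at -0.59, bladder tumor 7 and the treated metastasis lie high, and the assembly factors in pale blue stay between -0.13 and 0.15.

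The spread over the 12 arrays that are not near-mean ran from an SD of 0.11 for Ndufaf7, a complex I assembly factor, to 1.38 for Atp5md, a small subunit of the ATP synthase membrane part, with a median of 0.32. Over all genes the median was 0.26. In the 8 near-mean arrays the SDs of the set had a median of 0.24. The SD was larger in the 12 arrays than in the 8 for 72 of 91 genes, against 49.6% of all genes. A range above 1, that is over 2-fold, was seen across the 12 arrays in 51 of 91 genes (37.5% of all genes) and a range above 2 in 16 (7.12% of all genes). Bladder tumor 1 was the lowest of the 12 arrays for 57 of 91 genes, against 16.4% of all genes. Bladder tumor 7 was the highest for 27 (8.52% of all genes), metastasis 1 for 21 (9.97%) and bladder tumor 6 for 13 (10.9%). Brighter rows spread more: of the 45 genes above the median of the set's means, 33 had a range above 1 and 37 were lowest in bladder tumor 1, against 18 and 20 of the other 46.

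**Figure D2:**
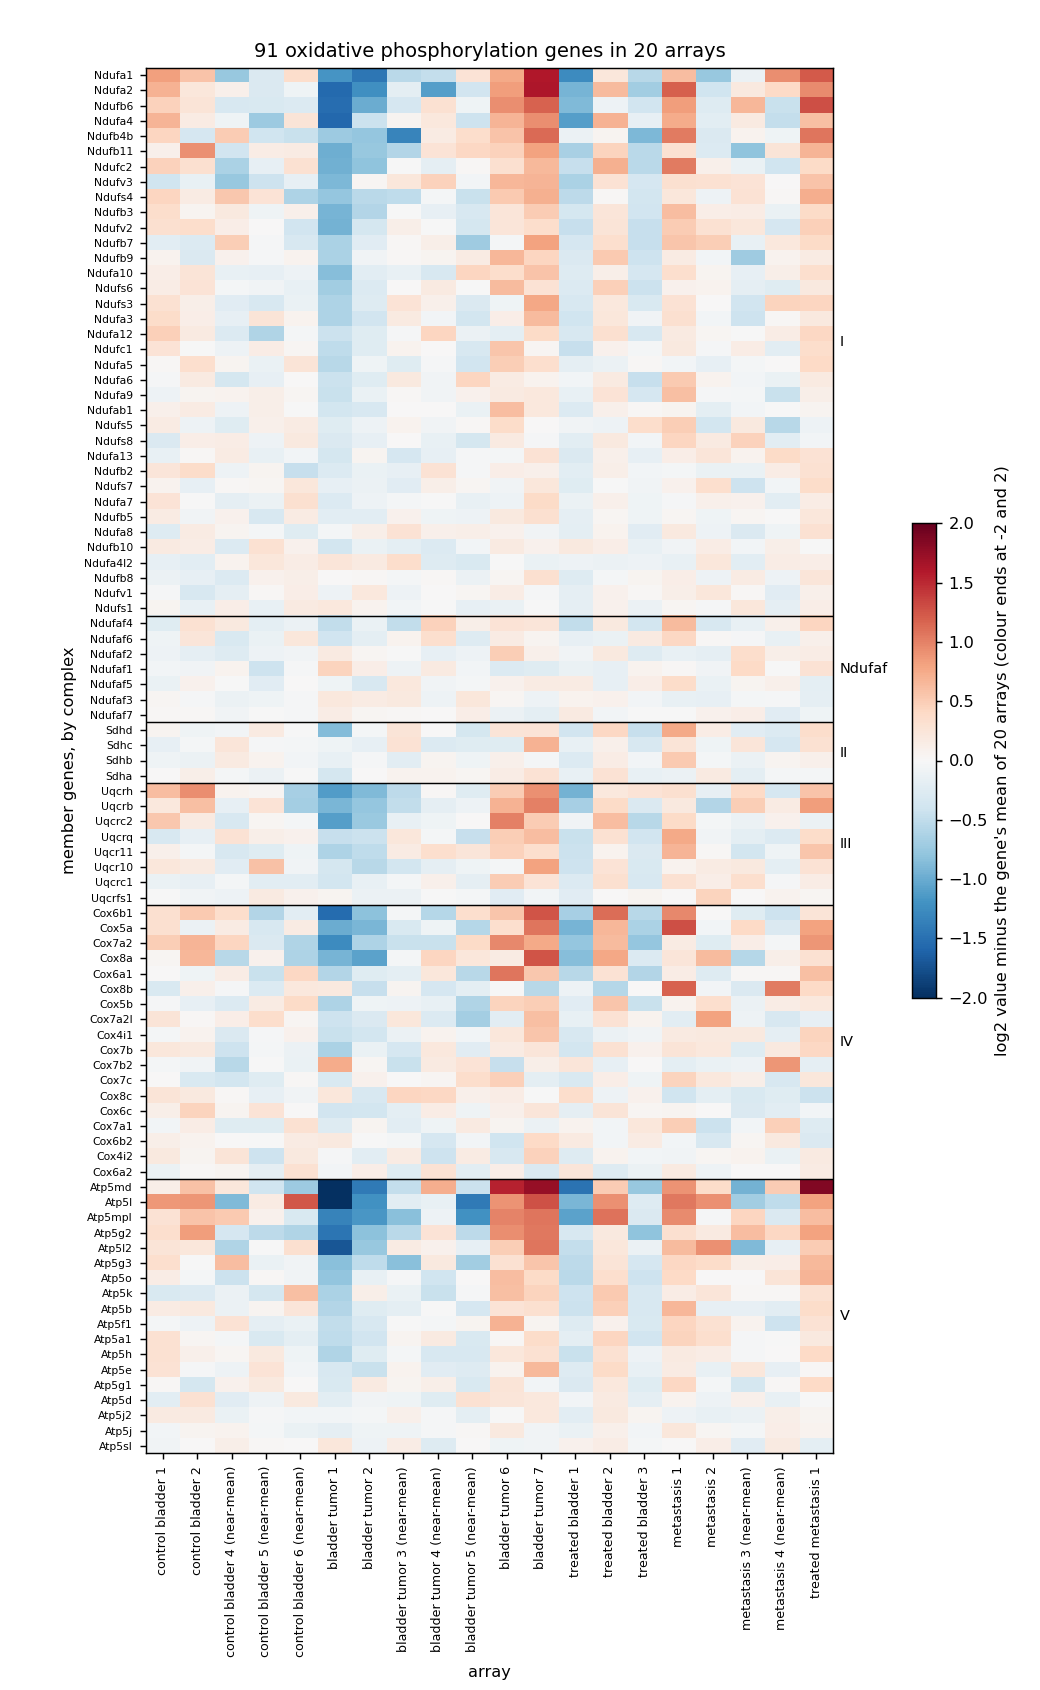
The map of genes by array shows each of the 91 genes as a row, ordered by complex, and each array as a column; colour is the log2 value minus the gene's own mean of 20 arrays. Bladder tumor 1, with 78 of 91 genes below their mean, and bladder tumor 7, with 73 above, stand out as columns, and most cells of the near-mean arrays are pale.

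Among the complex I subunits, Ndufa1, a small membrane subunit needed for assembly, had the largest spread. It was at 5.93 in bladder tumor 2, 6.20 in bladder tumor 1 and 6.13 in treated bladder 1, and at 8.99 in bladder tumor 7. Control bladder 1 and 2 had 8.20 and 7.96, and the near-mean controls 6.62 to 7.73. Ndufb6, a membrane arm subunit, had 6.48 in bladder tumor 1, 7.01 in bladder tumor 2 and 7.12 in treated bladder 1, and 9.19 in bladder tumor 7 and 9.30 in the treated metastasis. The arrays at both ends were ones that were low or high for the whole set. Ndufv3, an accessory subunit of the NADH-oxidising module, was at 6.95 to 7.56 in the 5 control bladders and at 7.72 to 8.03 in the 4 metastases. The 7 bladder tumors had a median of 7.93 for Ndufv3 and overlapped both. Their lowest value was 6.82, in bladder tumor 1, and their highest 8.38, in bladder tumor 7, arrays that were low and high for the whole set. Ndufv3 in treated bladder 1, 2 and 3 was 7.08, 7.99 and 7.38.

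The complex I assembly factors, which help to build the complex without staying in it, were the steadiest group, with a median SD of 0.21 over the 12 arrays and 1 of 7 with a range above 1. That one was Ndufaf4, whose promoter holds the NRF1 match shown above. Its values were 5.91 to 6.46 in control bladder, 5.66 to 6.62 in bladder tumor, 5.66 to 6.35 in treated bladder and 5.84 to 6.79 in metastasis, and all groups overlapped. Ndufaf2 had 6.09 to 6.28 in control bladder, and in bladder tumor a lowest value of 6.18, a median of 6.40 and a highest of 6.85. For comparison, the 46 genes of the set with the lower means had a median SD of 0.24 over the same arrays. Signal over background was not analysed here.

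Complex II, succinate dehydrogenase, links the chain to the TCA cycle. Sdha, its catalytic flavoprotein, was at 6.24 to 6.48 in control bladder, 6.00 to 6.65 in bladder tumor, 6.20 to 6.65 in treated bladder and 6.16 to 6.54 in metastasis. Sdhd, one of the membrane anchors and the second gene with an NRF1 match above, spread most: it had 5.09 in bladder tumor 1 and 6.72 in metastasis 1. Control bladder lay between, at 5.87 to 6.13, and treated bladder 1, 2 and 3 had 5.58, 6.37 and 5.50. Sdhb, the iron-sulfur subunit, had its highest value, 6.66, in metastasis 1 too. For Sdha that array had 6.24, below most others, so the complex II genes did not all follow one order.

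In complex III, which passes electrons from ubiquinol to cytochrome c, Uqcrh, the hinge protein beside cytochrome c1 and the gene with the ETS match above, had both the brightest row and the widest spread. Its values in control bladder 1, 2, 4, 5 and 6 were 8.49, 8.79, 7.93, 7.90 and 7.20. Bladder tumors ranged from 6.74 to 8.77 with a median of 7.62, treated bladder 1, 2 and 3 had 6.92, 8.08 and 8.13, and metastasis 1 to 4 had 8.18, 7.70, 8.26 and 7.53. All groups overlapped for Uqcrh. Uqcrc1, a core subunit facing the matrix, was at 5.70 to 5.87 in control bladder and at 6.23, 6.05, 6.25 and 5.90 in metastasis 1 to 4. Every metastasis lay above every control there, and the bladder tumors, at 5.55 to 6.43, overlapped both.

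In complex IV, cytochrome c oxidase, several subunits come as a widely expressed form and a form known from muscle, testis or lung. The widely expressed forms carried the array differences. Cox6b1, which joins the dimer on the intermembrane side, was at 8.16 in bladder tumor 1, 8.88 in bladder tumor 2 and 9.05 in treated bladder 1, and at 10.97 in bladder tumor 7, 10.82 in treated bladder 2 and 10.67 in metastasis 1. Its SD over the 12 arrays was 0.86. Cox7a2, Cox8a and Cox6a1 had SDs of 0.77, 0.73 and 0.52, and Ndufa4 had 0.80. The counterparts of these genes spread less: Cox6b2, a testis form, had an SD of 0.24, Cox7a1, a muscle form, 0.24, Cox6a2, another muscle form, 0.18, and Ndufa4l2, which is known as a hypoxia target, 0.17. Cox4i1 and Cox4i2 had 0.31 and 0.22. Rows of different genes differ in brightness and probe response, so these SDs do not rank the genes' regulation.

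Not every tissue form was steady. Cox7b2, a testis form, had an SD of 0.30 over the 12 arrays, like the 0.31 of Cox7b. It was at 6.23 in bladder tumor 1 and at 6.36 in metastasis 4, a near-mean array outside the 12. Cox8b, the striated muscle form of subunit 8, had an SD of 0.48. It was at 6.27 in metastasis 1 and 6.13 in metastasis 4, and at 5.04 and 4.80 in metastasis 2 and 3. The treated metastasis had 5.49, the control bladders 4.78 to 5.30, the bladder tumors 4.53 to 5.28 and the treated bladders 4.52 to 5.10. Metastasis 1 and 4 lay above all bladder samples, and the other 2 metastases lay within them. The mean of 13 striated muscle markers was 5.26 in metastasis 1 and 5.53 in metastasis 4, against 5.52 to 5.87 in all bladder samples. Among them, Tnnt2 was at 6.75 in metastasis 1, 7.56 in metastasis 4 and 7.26 to 9.60 in the bladder samples. The mean of 8 adipocyte markers was 6.23 in metastasis 1 and 5.73 in metastasis 4, but also 5.72 in metastasis 3, where Cox8b was lowest of the metastases, and 5.76 in the treated metastasis, with 5.23 to 5.76 in all bladder samples. The part of muscle or fat cells in the Cox8b values was not tested. Cox8c, a testis form, was lower in the metastases, at 5.09, 5.30, 5.19 and 5.25, than in the control bladders, at 5.76, 5.70, 5.52, 5.33 and 5.42.

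Complex V held the widest ranges of the set. Atp5md was at 5.98 in bladder tumor 1 and 6.93 in treated bladder 1, and at 9.95 in bladder tumor 6, 10.16 in bladder tumor 7 and 10.27 in the treated metastasis. The control bladders had 8.53, 9.01, 8.64, 8.02 and 7.70. For Atp5l, subunit g of the membrane part, the values were 7.55 in bladder tumor 1 and 11.58 in bladder tumor 7. The Atp5l row carries a platform code of chromosome 5 while the gene lies on chromosome 9, and that of Atp5g2 a code of chromosome 7 while the gene lies on chromosome 15, so both may measure a copy elsewhere. Rows on the genes' own chromosomes were dimmer. For Atp5l they had means of 5.44 and 5.14 over all arrays, against 10.31 for the kept row, and for Atp5g2 6.51 against 7.87. Atp5g1, Atp5g2 and Atp5g3 encode the same mature c subunit of the rotor. Atp5g3 was at 6.29 in bladder tumor 1 and 7.77 in the treated metastasis. Atp5g1 ranged only from 5.49 in control bladder 2 to 6.25 in metastasis 1 over the 12 arrays.

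The order of the arrays by these genes was largely the reverse of their order by olfactory, vomeronasal and trace amine receptor genes, taken here as a background set. The mean of 1542 such chemosensory genes was 5.27, 5.01, 5.11 and 5.17 in bladder tumor 1, bladder tumor 2, treated bladder 1 and treated bladder 3, the arrays with the lowest means of the 91 genes. It was 4.64, 4.66, 4.62 and 4.78 in bladder tumor 6, metastasis 1, the treated metastasis and treated bladder 2, where the 91 genes were high. Bladder tumor 7, highest for the 91 genes, had 4.86, near the 4.82 and 4.90 of control bladder 1 and 2. The near-mean arrays lay at 4.90 to 4.93. Cell type markers did not follow one order with the set: smooth muscle markers had a mean of 9.22 in bladder tumor 7 and 8.18 in treated bladder 2, but 5.31, 5.41 and 5.34 in bladder tumor 6, metastasis 1 and the treated metastasis. The mean of 7 proliferation markers was 7.12, 7.45 and 7.06 in those 3 arrays and 5.47 in bladder tumor 7. The part of tissue makeup and RNA quality in the array differences was not tested.

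**Figure D3:**
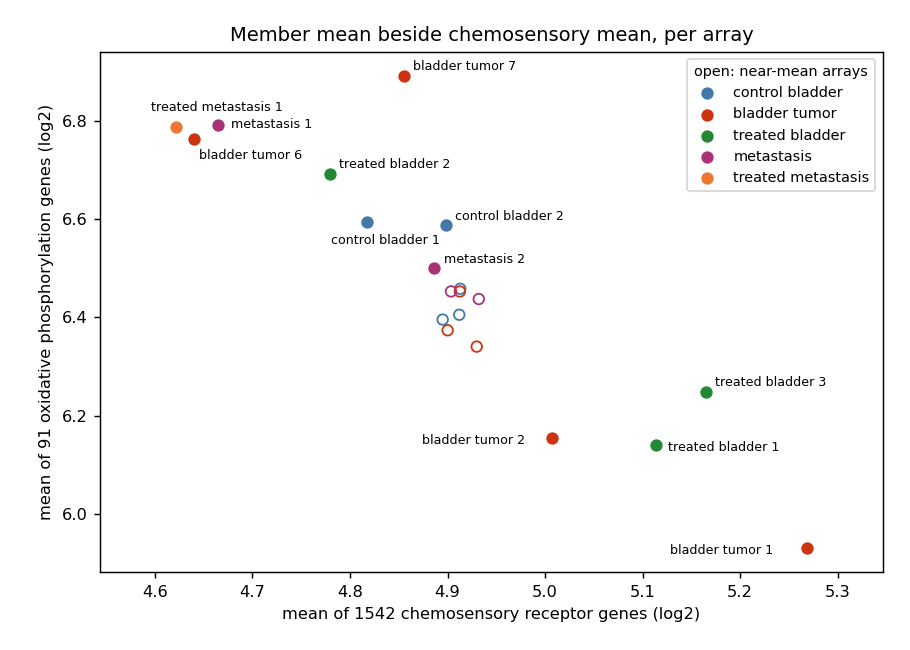
The plot of means sets the mean of the 91 genes (vertical, log2) against the mean of 1542 chemosensory receptor genes (horizontal, log2) in each of the 20 arrays, coloured by group, with near-mean arrays open. Bladder tumor 1 lies at the lower right, with 5.93 and 5.27, and bladder tumor 7 lies highest at 6.89 with a chemosensory mean of 4.86.

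Bladder tumor against control bladder asks whether tumor formation goes with another level of respiratory genes. The 91 genes had a median difference of -0.04 (log2, tumor minus control), with 28 higher and 63 lower, against 0.01 over all genes. By complex the medians were -0.04 for I, 0.05 for the assembly factors, -0.02 for II, -0.12 for III, -0.08 for IV and -0.06 for V. In limma, adjusted by Benjamini-Hochberg over all genes, 0 of 91 were called and 0 of 30142 genes (0%); at an unadjusted p under 0.05 there was 1 of 91, against 1291 genes (4.28%). That 1 was Ndufv3, with 7.87 ± 0.55 (SD, n = 7) against 7.34 ± 0.25 (SD, n = 5) and an adjusted p of 0.999 in limma. Cox6c, a nuclear complex IV subunit, had 6.35 ± 0.25 (SD, n = 7) in tumor and 6.61 ± 0.18 (SD, n = 5) in control, and Ndufaf2 had 6.43 ± 0.22 (SD, n = 7) and 6.21 ± 0.08 (SD, n = 5), both with the same adjusted p in limma. No gene of the set had groups that did not overlap (0 of 91, against 0.179% of all genes). Without the near-mean arrays the median was -0.12 and 0 of 91 were called (0.00332% of all genes); with these arrays alone it was -0.02. Leaving them out keeps only control bladder 1 and 2, here and in the other comparisons with controls. Xist, the RNA of the inactive X chromosome, was at 10.8 and 10.9 in these 2 arrays and at 4.47 to 6.44 in the other 18, and its part in the results was not tested; without the 2 arrays the median was -0.00. Leaving out bladder tumor 1 turned it to 0.01.

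Treated bladder against bladder tumor asks what CM272 with cisplatin goes with. The median was -0.05 (treated minus tumor), with 29 of 91 higher and 62 lower, against a median of -0.00 over all genes. Complex I had 6 higher and 30 lower with a median of -0.08, complex V 11 higher and 7 lower with 0.01, and complexes II, III and IV had -0.06, -0.06 and -0.03. limma called 0 of 91 and 0 of 30142 genes (0%), and 0 of 91 had an unadjusted p under 0.05, against 147 genes (0.488%). The smallest p belonged to Ndufa8, a complex I subunit of the intermembrane side, at 5.89 ± 0.16 (SD, n = 3) against 6.09 ± 0.12 (SD, n = 7), followed by Ndufv3 with a difference of -0.38 ± 0.27 (SE) and Ndufb10, a membrane arm subunit, with 0.17 ± 0.13 (SE); all had an adjusted p of 1.0 in limma. Groups overlapped for every gene of the set (0 of 91 without overlap, against 0.166% of all genes). The median was 0.03 without treated bladder 1, -0.19 without treated bladder 2, -0.01 without treated bladder 3 and -0.08 without the near-mean tumors. With the chemosensory mean as a covariate it was 0.05.

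Treated bladder against control bladder gave the largest share of lower values, 73 of 91 genes, with 18 higher and a median of -0.10 (treated minus control), against 0.01 over all genes. The genes on the lower side included 33 of 36 of complex I (median -0.10), 7 of 8 of complex III (-0.13) and 16 of 18 of complex V (-0.13), and 12 of 18 of complex IV (-0.07). Among the assembly factors, 5 of 7 were higher (0.06). Called genes were 0 of 91 and 0 of 30142 (0%) in limma, and 0 of 91 had an unadjusted p under 0.05, against 230 genes (0.763%). Ndufs4, a complex I subunit of the matrix arm, had 5.97, 6.51 and 6.13 in treated bladder 1, 2 and 3 and 5.87 to 7.04 in control bladder, a difference of -0.45 ± 0.31 (SE). Uqcr10, a small complex III subunit, and Atp5g3 had -0.29 ± 0.25 (SE) and -0.34 ± 0.30 (SE), and all 3 had an adjusted p of 1.0 in limma. Again 0 of 91 had groups without overlap, against 1.19% of all genes. The median was -0.26 without treated bladder 2, -0.01 without treated bladder 1, -0.17 without the near-mean controls (0 of 91 called, against 0.00332% of all genes), -0.06 without control bladder 1 and 2, and 0.05 with the chemosensory mean as a covariate.

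Metastasis against bladder tumor went the other way. The median was 0.10 (metastasis minus tumor), with 70 of 91 higher and 21 lower, against -0.03 over all genes. Higher were 25 of 36 genes of complex I (median 0.08), 3 of 4 of complex II (0.09), 8 of 8 of complex III (0.17), 14 of 18 of complex IV (0.10) and 16 of 18 of complex V (0.18). limma called 0 of 91 and 0 of 30142 genes (0%), while 6 of 91 had an unadjusted p under 0.05, against 1810 genes (6%). These were Cox8c, Cox8b, Ndufa13, Ndufs8, Ndufaf3 and Uqcrfs1, all with an adjusted p of 0.825 in limma. Cox8c had 5.21 ± 0.09 (SD, n = 4) in metastasis and 5.64 ± 0.26 (SD, n = 7) in tumor, where the lowest tumor, at 5.18, lay inside the metastases. Cox8b had 5.56 ± 0.75 (SD, n = 4) and 4.90 ± 0.28 (SD, n = 7), which rests on metastasis 1 and 4 as given above. Ndufa13, a complex I subunit also known as GRIM-19, was at 6.17, 6.28, 6.11 and 6.43 in metastasis 1 to 4 and at 5.69 to 6.34, with a median of 6.01, in bladder tumor. Groups overlapped for all 91 (0 without overlap, against 0.514% of all genes). Cell type markers differed beside these genes: the mean of 5 hepatocyte markers was 6.21 ± 1.28 (SD, n = 4) in metastasis, with 8.11 in metastasis 2, and 5.31 ± 0.25 (SD, n = 7) in tumor. That of 17 leukocyte markers was 6.43 ± 0.62 (SD, n = 4) and 6.16 ± 0.44 (SD, n = 7), and that of 15 urothelial markers 6.03 ± 0.59 (SD, n = 4) and 6.56 ± 1.05 (SD, n = 7). Their part in the result was not tested. Without the near-mean arrays the median was 0.19 and 0 of 91 were called (0.0133% of all genes). It was, with them alone 0.04, without metastasis 1 or any other single array 0.03 to 0.16, and with the chemosensory mean as a covariate -0.01.

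Metastasis against control bladder had a median of 0.04 (metastasis minus control), with 56 of 91 higher and 35 lower, against -0.01 over all genes. Complex I was split at 19 higher and 17 lower (median 0.01), and complexes II, III, IV and V had medians of 0.06, 0.03, 0.05 and 0.06. With limma, 0 of 91 and 0 of 30142 genes (0%) were called, and 3 of 91 had an unadjusted p under 0.05, against 2146 genes (7.12%). The same 3 genes were those whose groups did not overlap (3 of 91, against 2.95% of all genes): Cox8c, with -0.34 ± 0.14 (SE), Ndufv3, with 0.60 ± 0.26 (SE), and Uqcrc1, with 0.34 ± 0.16 (SE), at adjusted p of 0.685, 0.686 and 0.701 in limma. A share near that of all genes is no result about the set. The median was -0.03 without metastasis 1, 0.06 without the near-mean arrays (0 of 91 called, against 0.0166% of all genes) and 0.10 without control bladder 1 and 2. These 5 comparisons share groups, so their directions are not independent of one another.

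**Figure D4:**
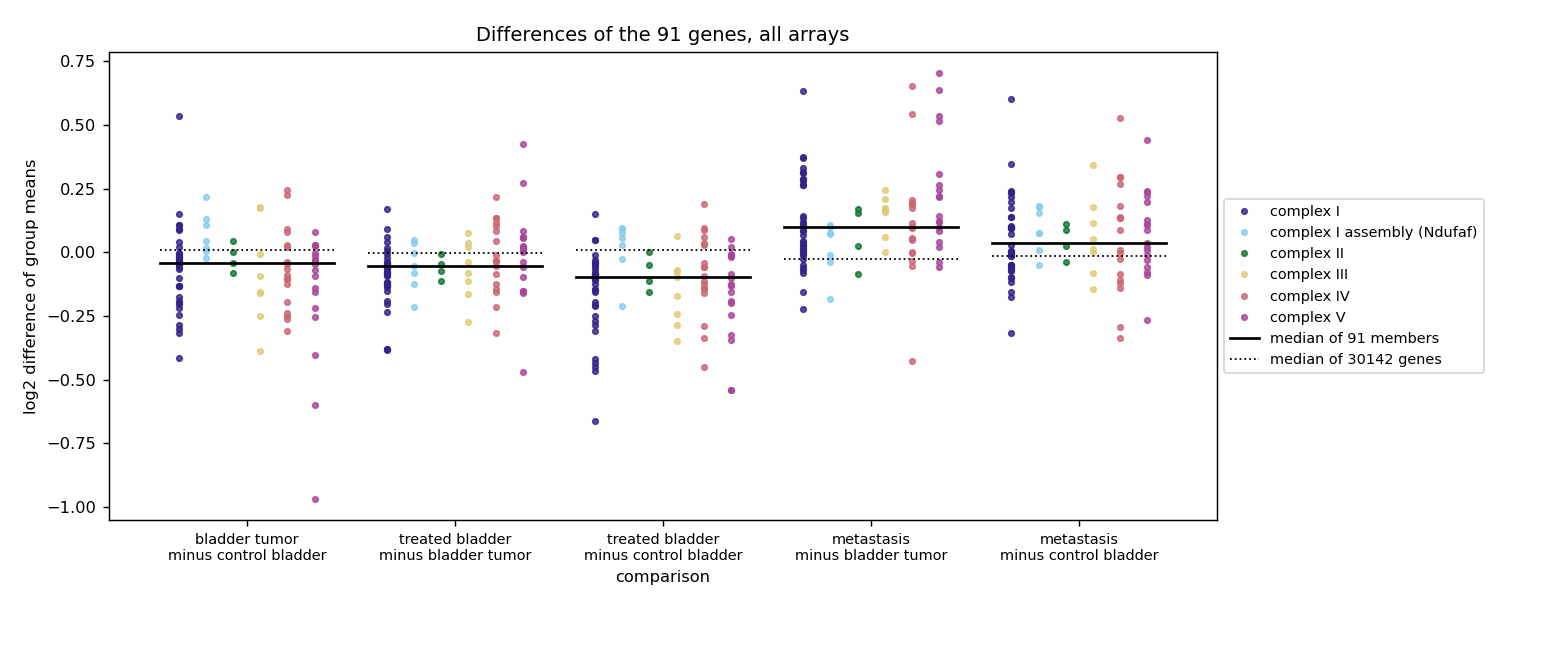
The plot of differences shows the log2 difference of group means of each of the 91 genes, by complex, in 5 comparisons, with the median of the set as a solid line and that of 30142 genes as a dotted line. The set's medians lie between -0.10, in treated bladder against control bladder, and 0.10, in metastasis against bladder tumor, and no gene was called.

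The treated metastasis was a single sample and has no replicate check. Of the 91 genes, 33 lay above all 4 untreated metastases, against 14.4% of all genes, and 3 lay below, against 19.1%. Furthest above were Atp5md, at 10.27 against 7.47 to 9.31, Cox7a2, at 8.60 against 7.47 to 7.88, and Cox6a1, one of the genes with an NRF1 match above, at 8.49 against 7.62 to 8.03. Atp5md and Cox7a2 had no NRF1 or ETS match. Below were Ndufaf5, at 5.04 against 5.11 to 5.61, Cox8c, at 5.07 against 5.09 to 5.30, and Ndufaf3, at 5.06 against 5.08 to 5.22. The comparison leans on metastasis 1, whose mean of 6.79 over the 91 genes equals that of the treated sample: without it, 55 of 91 lay above the remaining 3, against 22.8% of all genes. Set beside only the metastases that are not near-mean, 39 lay above and 14 below, against 25.6% and 32.3% of all genes. The shares of all genes are not matched for brightness. In the treated metastasis, 39.5% of all genes lay above their own mean, but 57.9% of the genes brighter than the median gene. Of the 91 genes, 75 did so. The part of brightness in the counts above and below the untreated metastases was not tested.

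Genes around the chain, from lists drawn up for their function, gave no called gene in any comparison by limma. The electron and mitochondrial carriers, such as cytochrome c, the phosphate and ADP/ATP carriers and the VDAC pores, had medians of 0.02 in tumor against control (5 of 10 higher), -0.14 in treated bladder against tumor (2 of 10 higher), -0.09 in treated bladder against control (0 of 10 higher), 0.13 in metastasis against tumor (8 of 10 higher) and 0.15 in metastasis against control (10 of 10 higher). Vdac2, an outer membrane pore, had the smallest p of that list in both metastasis comparisons, with differences of 0.69 ± 0.23 (SE) and 0.64 ± 0.25 (SE). The mean of the 10 carrier genes was 7.72 in metastasis 1 and 7.03, 6.84 and 6.78 in metastasis 2 to 4. In the near-mean arrays alone it was 6.81 in metastasis, 6.92 in tumor and 6.84 in control. Over all arrays the 12 TCA cycle genes measured had medians of -0.03, -0.04, -0.08, 0.13 and 0.02 in the same order of comparisons. Of these genes, 11 of 12 were higher in metastasis against tumor. In the near-mean arrays alone, their mean was 6.36 in metastasis, 6.37 in tumor and 6.41 in control. For glycolysis, 12 of 13 genes were higher in tumor against control, with a median of 0.12. The mean of these 13 genes was 6.62 in tumor and 6.10 in control without the near-mean arrays, with 7.28 in bladder tumor 6. In the near-mean arrays alone it was 6.40 in tumor and 6.45 in control. Over all arrays Tpi1, triosephosphate isomerase, had the smallest p of the list in tumor against control. Its difference was 0.56 ± 0.23 (SE), with an adjusted p of 0.999 in limma. Pgk1, phosphoglycerate kinase, was higher by 1.46 ± 0.58 (SE) in metastasis against control, with an adjusted p of 0.676 in limma.

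The 28 measured assembly factors outside the Ndufaf series had medians of 0.01, -0.03, -0.02, -0.02 and -0.02, in the same order. Cox15, which makes heme A for complex IV, had the smallest p of that list in both metastasis comparisons, at 0.25 ± 0.10 (SE) against tumor and 0.33 ± 0.11 (SE) against control. The 12 measured regulators of mitochondrial biogenesis had medians of 0.03, -0.03, -0.03, 0.06 and 0.04. Gabpa, the DNA-binding subunit of GABP, was higher by 0.24 ± 0.11 (SE) in metastasis against tumor, with an adjusted p of 0.825 in limma, and Tfb2m, a mitochondrial transcription factor, had -0.28 ± 0.11 (SE) in tumor against control, with an adjusted p of 0.999 in limma. The genes encoded in mitochondrial DNA were not analysed here.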

How the data were processed

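A kit for formalin-fixed tissue gave total RNA, and 12 ng per sample was labelled, according to the labels. The authors deposited log2 values; the submitters' processing notes name RMA and Affymetrix Expression Console, without versions, and no batch adjustment is named in what was used here. RMA quantile-normalizes arrays, so differences in total RNA are removed. The deposited table holds 65956 rows; 30604 had 1 platform symbol, giving 30142 genes, and the row of highest mean was kept. Of 95 rows under the rule, 91 genes remained; 4 rows with several symbols and 2 pseudogene rows were left out. The kept row lay on the gene's own chromosome for 87 genes.

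Group means were fitted in R 4.3.3 with limma 3.58.1 to the 19 arrays of the 4 replicated groups with lmFit and eBayes, two-sided, adjusted by Benjamini-Hochberg over all genes of each comparison and called at adjusted p under 0.05. The fit was tested on simulated data. No batch is given in the labels. The members and lists were chosen with earlier results of these data known. Acta2 and Tnnt2, from the marker lists, were named after their values were seen. Named genes were, per comparison, the called members or else the 3 of smallest p, per complex the members of highest mean and of largest SD over the 12 arrays, the tissue isoforms, the 3 furthest above and below the untreated metastases, and per context list the gene of smallest p; Ndufaf7, Sdhb, Ndufs8, Uqcrfs1, Cox7b, Cox7b2 and Xist were named after their values were seen. Alternatives covered array weights, a trended and robust prior, renormalization, centring, row choice, dim genes, the replicate block, leaving out each array, the near-mean arrays and the chemosensory mean as a covariate.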

Additional observations from a re-analysis of the deposited data

Results flagged for a closer look

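Over 120 groups of values tested, from 40 items, 4 had a highest or lowest sample far from the others, where chance gives about 1 in 20. Cox4i1 was at 5.66 in metastasis 4, where the nearest metastasis had 6.01. Ndufv3 was at 7.72 in metastasis 4, with the nearest at 7.98. Uqcr10 was at 5.55 in bladder tumor 7, with the next tumor at 4.71. The mean of complex I was 6.83 in metastasis 1, with the nearest metastasis at 6.48.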

How the results depend on the processing

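The call of 0 of the 91 genes held in each comparison under all 20 to 25 alternatives run for it, array weights and a trended, robust prior included. The 15 differences of genes of smallest p kept their direction and stayed uncalled under all 331 alternatives run. They were picked by p in these same arrays, so a kept direction is no independent check. Every median difference moved by less than 0.2521, the SD between samples of the mean of the 91 genes. That limit is wider than any of the medians themselves, so staying within it does not show that they are stable. Signs turned in 2 of 27 alternatives for bladder tumor against control bladder, 3 of 23 for treated bladder against tumor and 1 of 22 for treated bladder against control. They also turned in 1 of 25 for metastasis against tumor and 3 of 24 for metastasis against control. Leaving out one array gave ranges of -0.11 to 0.01, -0.19 to 0.03, -0.26 to -0.01, 0.03 to 0.16 and -0.03 to 0.08 in that order. The count of genes above the untreated metastases was 55 without metastasis 1 (22.8% of all genes) and 35, 36 and 36 without metastasis 2, 3 or 4 (19.4%, 18.6% and 17.9%), against 33 (14.4%) with all 4. Deviations of same-numbered samples of different groups had correlations of -0.51 to 0.44 over 20 pairs, with 3 above 0.1. The highest was that of bladder tumor 1 with treated bladder 1. Near-mean arrays were picked for correlating with no other array, so these values cannot decide whether the numbers pair samples. With the replicate number as a block the medians were -0.08, 0.04, -0.05, 0.22 and 0.10. The near-mean arrays, the treated metastasis without metastasis 1, the leaving out of control bladder 1 and 2 and the own-chromosome rows of Atp5l and Atp5g2 were chosen after seeing the data. Signal over background was not analysed.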
